A study of Mus musculus with 4 samples.

Results

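The deposited count matrices of 4 mouse brain libraries held 12487 cell barcodes, and 980 of them (7.85%) had more than 20% of their UMIs on the 13 protein-coding genes of the mitochondrial genome. A UMI (unique molecular identifier) stands for 1 captured RNA molecule. These barcodes were chosen by that measured share alone, whatever their number of genes, and are called members here. They were set beside the 10067 barcodes of the same libraries at or below 20% with at least 400 detected genes, and the remaining 1440 barcodes were at or below 20% with fewer genes. The working label for the members is damaged cells, but viability was not measured in the files and the name rests on the mitochondrial share only.

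The study asked how enzymatic dissociation changes gene expression in brain cells. Each library was made from the whole brain of 1 male C57BL/6J mouse at P90 (postnatal day 90), digested enzymatically and loaded without sorting. In 2 libraries the tissue was processed without inhibitors, and in 2 it was processed with a cocktail that held actinomycin D and triptolide, which block transcription, from perfusion onward and anisomycin, which blocks translation, from dissection onward. All 4 libraries were prepared with 10x 3′ chemistry and were labelled as 1 batch. The cocktail was the only labelled difference between the groups, which also held different animals, with n = 2 per group.

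Mitochondria carry their own genome and transcribe it inside their membranes, and the transcripts encode subunits of the respiratory chain. Most other mRNAs lie free in the cytoplasm, whereas mRNAs for secreted and membrane proteins are bound to the endoplasmic reticulum and some long non-coding RNAs, such as Malat1 and Neat1, are kept in the nucleus. A cell whose outer membrane has opened can lose cytoplasmic RNA while mitochondria stay behind, which is why a high mitochondrial share is commonly used to remove barcodes. Cell types with many mitochondria can reach a high share without it.

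The members numbered 247 and 280 in no_inhibitors replicates 1 and 2, and 198 and 255 in inhibitors replicates 1 and 2. They were 8.69% of the deposited barcodes in no_inhibitors replicate 1 (exact 95% binomial interval 7.68 to 9.79%) and 7.78% (6.93 to 8.71%) in replicate 2. The shares with inhibitors were 7.70% (6.70 to 8.80%) and 7.33% (6.49 to 8.25%). These intervals cover counting error only. Both shares without inhibitors were above both with, and the means differed by 0.723 percentage points (exact permutation test over the 4 libraries, two-sided p = 0.33, the smallest that 2 against 2 libraries can give).

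Because the rule used the mitochondrial share, the following values are descriptive. The members' median mitochondrial share was 26.3, 26.9, 28.3 and 27.2% in no_inhibitors 1 and 2 and inhibitors 1 and 2, the order used for every set of 4 values here, and the highest was 90.9, 90.5, 94.4 and 94.1%. Members had a median of 564, 562, 553 and 577 non-mitochondrial UMIs against 1544, 1520, 1587 and 1356 in the comparison barcodes, and of 245, 242.5, 245 and 249 mitochondrial UMIs against 103, 109, 99 and 96.5. A median member thus held both fewer UMIs of other genes and more mitochondrial UMIs. Just inside the limit, 85 barcodes at 20 to 21% had a median of 673 non-mitochondrial UMIs and 471 genes, and 41.2% of them were astrocyte-like. Just outside it, 84 barcodes at 19 to 20% had 1000 UMIs and 673 genes, and 54.8% were astrocyte-like.

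The libraries held 5134359 to 7529804 UMIs, and the members' UMIs summed to 248815 to 368851 per library. In these sums a shortage of cells of a type and a shortage of RNA per cell cannot be told apart, so cell types were also treated one at a time. Any pair of libraries shared 9 to 13 barcodes in all and 0 to 1 among members.

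Members were given a cell class by comparing 200 randomly drawn non-mitochondrial UMIs of each with the classes of the comparison barcodes, which were clustered and named from marker genes. Of the members, 12 had fewer than 200 such UMIs and 968 were assigned, 5 of these (0.517%) with a narrow margin. Assigned without the nuclear-retained RNAs, 964 (99.6%) kept their class. All 10 astrocyte, 10 oligodendrocyte, 10 neuron and 8 choroid plexus markers were at least 2-fold above the other members in members of that class. These markers were among the genes used to name the classes and to assign the members, so that this does not test the names.

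Members came unevenly from the brain's cell types. Shares of a class are given here among members and comparison barcodes together, without the 1440 barcodes at or below 20% with fewer than 400 genes. On this base 23.7% of the neuron-like barcodes lay above 20%, and so did 19.5% of the ependymal-like, 17.4% of the astrocyte-like, 17.2% of the oligodendrocyte-like and 13.4% of the choroid plexus-like barcodes. At the other end, only 34 endothelial-like barcodes (1.91%) and 9 of 3339 microglia-like barcodes on the same base (0.270%) were members. By library the microglia-like value was 0.139 to 0.411%. The exact 95% interval over the pooled barcodes, 0.123 to 0.511%, covers counting error only. Oligodendrocyte-precursor-like, border macrophage-like and mural-like barcodes lay between, at 7.90, 7.79 and 6.67%.

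Class makeup differed between members and comparison barcodes for 9 of 16 classes (limma on arcsine-transformed shares with a term for library), 5 of them higher and 4 lower in members, so that 31.2% and 25% of the tested classes were called in each direction. The fit gave all 16 classes the same SE (0.0219 on the transformed scale). Its p-values for class shares therefore rest on a variance pooled over classes and do not measure the spread of a single class between libraries. Astrocyte-like barcodes, the glia that clear glutamate and feed neurons, made up 43.1, 46.8, 45.1 and 37.5% of members and 21.3, 22.8, 17.8 and 16.7% of comparison barcodes. All 4 member values lay above all 4 comparison values (43.1 ± 4.05% against 19.7 ± 2.88%, mean ± SD, n = 4 libraries, limma adjusted p = 7.80e-15). Oligodendrocyte-like barcodes, the myelinating glia, made up 17.1, 18, 16.6 and 26.3% of members and 9.26, 6.24, 9.55 and 11.3% of comparison barcodes (limma adjusted p = 4.26e-08). Again the groups did not overlap, and inhibitors replicate 2 stood above the other members. With a limit of 10% in place of 20% the difference turned to -1.19 percentage points (limma adjusted p = 0.159).

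Neuron-like barcodes were 17.9, 7.19, 8.81 and 9.16% of members against 4.45, 2.73, 3.25 and 3.06% (limma adjusted p = 8.12e-08). Ependymal-like barcodes, from the ciliated lining of the ventricles, were 5.02 ± 1.55% against 1.95 ± 0.405% (n = 4, limma adjusted p = 0.00076). Choroid plexus-like barcodes, from the epithelium that secretes cerebrospinal fluid, were 5.28, 10.4, 10.9 and 13.1% of members against 6.85, 6.85, 7.20 and 4.14%. They were higher in 3 of 4 libraries and lower in no_inhibitors replicate 1 (difference 3.68 percentage points, limma adjusted p = 0.0077). The call was lost without inhibitors replicate 2 (1.90 points, limma adjusted p = 0.276) and without inhibitors replicate 1 (3.68 points, limma adjusted p = 0.11).

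Microglia-like barcodes, the resident macrophages and the largest class of the comparison barcodes, fell from 33.1 ± 0.844% to 0.911 ± 0.471% (n = 4, limma adjusted p = 5.37e-27). Endothelial-like barcodes, which line the vessels, fell from 17.0 ± 3.11% to 3.45 ± 0.983% (limma adjusted p = 7.67e-14). Shares sum to 100%, so that the absence of microglia raises every other class. With microglia-like barcodes left out on both sides, the astrocyte-, oligodendrocyte-, neuron- and ependymal-like shares stayed higher in members and the endothelial-like share lower. The choroid plexus-like difference fell to 0.681 percentage points (limma adjusted p = 0.781).

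**Figure D1:**
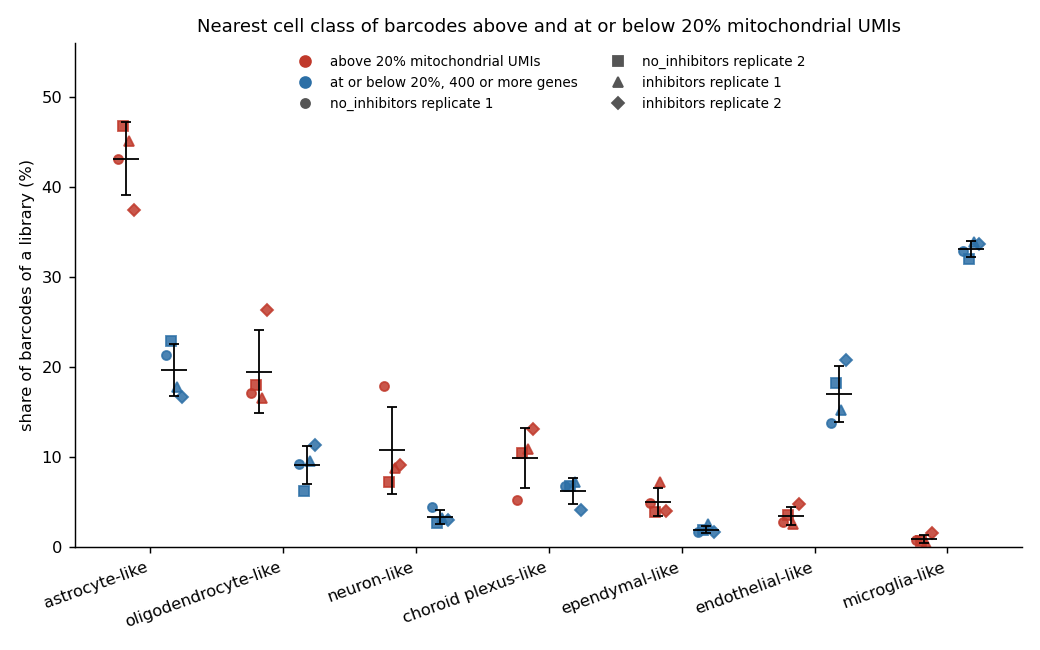
Share of 7 nearest cell classes (percent of a library's barcodes) among barcodes above 20% mitochondrial UMIs (red) and comparison barcodes (blue). Each point is a library, with its group and replicate given by the symbol, and lines give the mean ± SD (n = 4); the astrocyte-like share averaged 43.1% against 19.7% and the microglia-like share 0.911% against 33.1%.

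The UMI counts behind a share above 20% differed among classes. These counts are what the rule used, and they are given without a test. Astrocyte-like members had a median of 539 non-mitochondrial UMIs against 1377 in astrocyte-like comparison barcodes, 0.391 of the level, and 212 mitochondrial UMIs against 157. Oligodendrocyte-like members had 570 against 2609, 0.219 of the level, and 239.5 mitochondrial UMIs against 194. Both glial classes therefore had mitochondrial counts within 1.35-fold of the comparison and far fewer UMIs of other genes, and ependymal-like members (596 against 3114, and 280 against 246 mitochondrial) showed the same pattern.

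Choroid plexus-like and neuron-like members showed the opposite pattern. Choroid plexus-like members kept 1562 non-mitochondrial UMIs against 1988, but had 1481 mitochondrial UMIs against 100, 14.8-fold more. The library medians of their mitochondrial UMIs were 1603, 1541, 962 and 1351. Neuron-like members had 617.5 non-mitochondrial UMIs against 866 and 331 mitochondrial UMIs against 74.5, 4.44-fold more. Of the 69 barcodes above 50% mitochondrial UMIs, 34 (49.3%) were choroid plexus-like, 16 (23.2%) neuron-like and 5 astrocyte-like.

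Part of this difference lay between subtypes of a class. Of the choroid plexus-like members, 90 (93.8%) were nearest to cluster 26, led by the transporter and receptor genes Slc4a5, Steap2, Prlr, Tmem72 and Htr2c, which held 17.6% of choroid plexus-like comparison barcodes. Within that cluster members had a median of 1514 mitochondrial UMIs against 394 (3.84-fold) and 1703 other UMIs against 3425 (0.497 of the level). Among neuron-like members 22 (21.2%) were nearest to cluster 29, which held 4.79% of the comparison neurons, and there they had 805 mitochondrial UMIs against 586 (1.37-fold) and 823.5 other UMIs against 2896 (0.284 of the level). In cluster 10, which held most of the other neuron-like members, the mitochondrial median was 262.5 against 72 (3.65-fold). Within a cluster, members thus held fewer other UMIs in every case given here, and choroid plexus-like and most neuron-like members also held several-fold more mitochondrial UMIs.

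**Figure D2:**
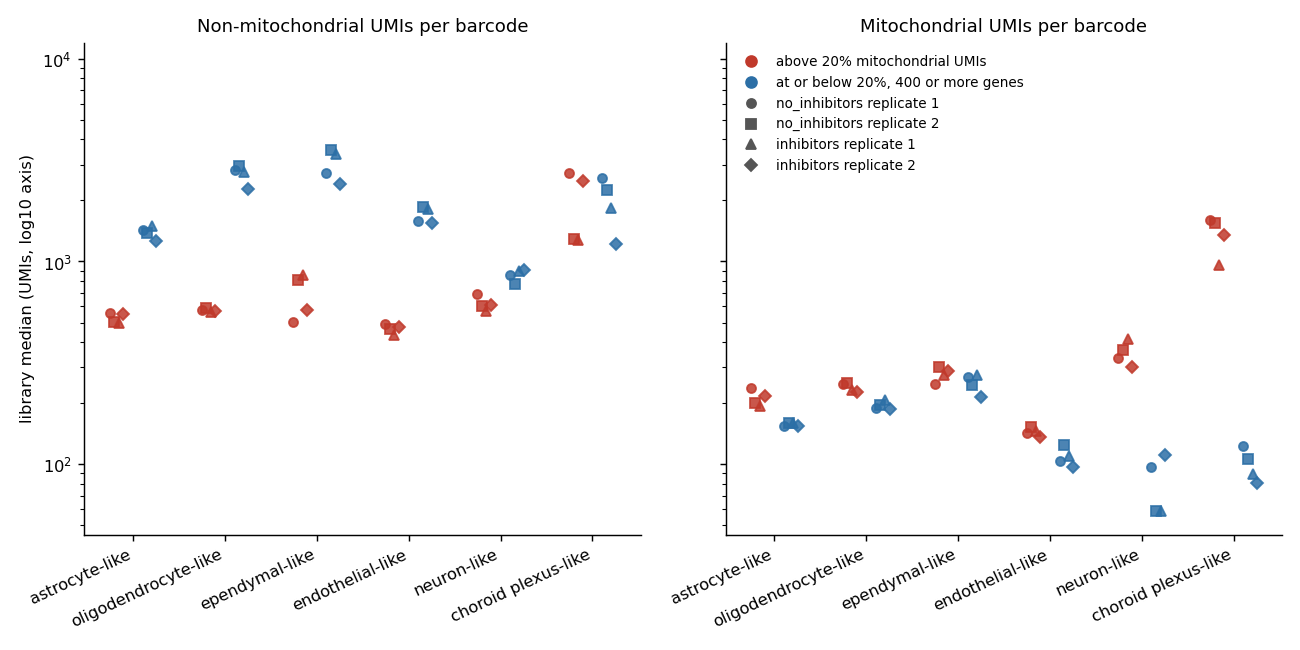
Library medians of non-mitochondrial UMIs (left) and mitochondrial UMIs (right) per barcode, on a log10 axis, for 6 cell classes in members (red) and comparison barcodes (blue), 1 point per library. Glial, ependymal-like and endothelial-like members lay lower on the left and close to their comparison on the right, whereas choroid plexus-like members reached 962 to 1603 mitochondrial UMIs.

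Within the mitochondrial RNA, the 13 genes did not share the change equally. As percent of mitochondrial UMIs, 3 genes were higher and 6 lower in members (limma on log2 shares with a term for library, 23.1% and 46.2% of the 13 genes called in each direction). Since the genes share 1 total, a rise of one lowers the others, and only relative change is shown. Leaving out either library with inhibitors left 1 gene called higher. The gene mt-Nd1, for a subunit of complex I (GRCm38 chromosome M, 2751 to 3707, plus strand), made up 11.6, 12, 11.8 and 12% of the members' mitochondrial UMIs and 10.6, 10.4, 10.3 and 10.5% in comparison barcodes, with no overlap (log2 difference 0.18, SE 0.02, limma adjusted p = 0.00354). The gene mt-Cytb, for cytochrome b of complex III, stood at 14.6% against 14.2% (limma adjusted p = 0.0471), and mt-Nd3 at 0.660% against 0.609% (limma adjusted p = 0.0118). The gene mt-Co1, for the catalytic subunit of complex IV, was lower by 0.08 on the log2 scale (limma adjusted p = 0.0471).

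The lowest values belonged to genes with few counts. The gene mt-Atp8, for a subunit of ATP synthase, fell from 0.0967 to 0.0410% (163 UMIs in members, 1358 in comparison barcodes, log2 difference -1.24, limma adjusted p = 0.00354). The gene mt-Nd6, the 1 protein gene on the minus strand (13552 to 14070), fell from 0.0257 to 0.0131% (52 against 364 UMIs, limma adjusted p = 0.00394). The gene mt-Atp8 (7766 to 7969) overlaps mt-Atp6, so that its count depends on how reads in the overlap were treated. The lower share of mt-Atp8 was seen in 4 of 4 libraries within astrocyte-like, oligodendrocyte-like, neuron-like and choroid plexus-like barcodes taken separately, whereas the higher share of mt-Nd1 was seen in 4 of 4 libraries in both glial classes, 3 of 4 in neuron-like and 2 of 4 in choroid plexus-like barcodes. These values by class were chosen after the pooled result was seen and were not tested.

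Nuclear-encoded genes were first compared over all classes together. Summed over all classes, 2099 of 13541 tested genes were higher and 2696 lower in members (edgeR quasi-likelihood test on library sums of non-mitochondrial genes with a term for library, adjusted p under 0.05 and more than 1.5-fold), or 15.5% and 19.9%. Without TMM (trimmed mean of M-values) scaling the split was 3023 higher and 1839 lower. The largest rises were genes of the choroid plexus, among them Slc4a5 (log2 fold change 3.87), Tmem72 (3.80), the serotonin receptor Htr2c (3.59), the tight-junction gene Cldn2 (3.56) and Kl, for the anti-ageing hormone klotho (3.46). The prolactin receptor Prlr stood at 433.7, 603.9, 899.2 and 899.1 CPM (UMI counts scaled to a common library total with TMM) in members and 69.0, 80.6, 30.7 and 24.3 in comparison barcodes, with no overlap (edgeR log2 fold change 3.88, adjusted p = 0.0236). The largest falls were genes of microglia, such as the fractalkine receptor Cx3cr1 at 3.91, 72.3, 16.4 and 38.8 CPM against 672.2, 625.7, 663 and 726.3 (edgeR log2 fold change -4.36, adjusted p = 0.000311) and the purine receptors P2ry6 (-4.87) and P2ry13 (-4.26). Adap2 held 2 UMIs in all members and 2688 in comparison barcodes.

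By marker list, all 10 microglial genes (median log2 fold change -3.34) and all 10 endothelial genes (-2.46) fell, while 7 of 10 astrocyte genes (0.85) and 7 of 10 neuronal genes (1.34) rose, beside a median of -0.05 over all tested genes. Not every list followed the class shares. Of 10 oligodendrocyte genes 1 rose and 4 fell (-0.11), and of 10 ependymal genes 1 rose and 6 fell (-0.66). Both of these classes had larger shares among members. All 5 neutrophil genes and 4 of 5 erythrocyte genes fell. The cytosolic ribosomal proteins fell in 78 of 81 genes (median -1.10), and 10 of 13 abundant housekeeping genes fell (-1.08). Of 14 tested genes of cell death and the p53 response, 8 fell, among them the cell-cycle inhibitor Cdkn1a (-2.43) and the pore-forming Bax (-0.72), and none rose. Within a class few of these genes were called, with 0 of 7 in astrocyte-like and 1 of 5 lower in oligodendrocyte-like members, and Cdkn1a passed the test in neither (edgeR adjusted p = 0.318 and 0.792). Of 8 genes of the integrated stress response, which pauses translation under stress, 2 fell and none rose, a share close to the 19.9% of all genes called lower. Of 7 nuclear-retained RNAs 5 rose, among them Meg3 (1.37) and Neat1 (0.88), and 1 fell, Malat1 (-0.93), while their summed share fell from 7.96 to 5.18%. The summed share of the cell-death genes was 0.0475% of non-mitochondrial UMIs in members against 0.0761% in comparison barcodes, lower in 4 of 4 libraries (exact sign-flip permutation test, p = 0.13, the smallest that 4 libraries can give).

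When comparison barcodes were drawn to match the members' number of barcodes per class in each library, 758 of 7929 tested genes were higher and 829 lower (edgeR, 9.56% and 10.5%). Ribosomal proteins still fell in 37 of 81 genes and housekeeping genes in 8 of 13, with none of the ribosomal genes rising. Cdkn1a fell by 1.31 on the log2 scale in this comparison. Of 7 nuclear-retained RNAs only 1 was higher and 1 lower in it, and Meg3 was not called (0.33, edgeR adjusted p = 0.742). Markers of ependymal cells (9 of 10) and oligodendrocytes (7 of 10) were lower and 5 of 8 choroid plexus genes higher, while 2 of 10 microglial genes were higher. As these sums still mixed classes, the 2 classes with at least 20 members in every library, astrocyte-like and oligodendrocyte-like, were fitted separately.

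Astrocyte-like members differed from astrocyte-like comparison barcodes in few genes. Only 70 of 7191 tested genes were higher and 82 lower (edgeR, 0.973% and 1.14%). Without scaling the split was 208 and 33, and leaving out no_inhibitors replicate 1 or 2 left 35 and 53 or 36 and 40, and leaving out inhibitors replicate 2 left 43 and 47. None of their own 10 markers passed both limits. The highest of them, the glutamate transporter Slc1a2, was higher by 0.46 on the log2 scale, under the fold limit (edgeR adjusted p = 4.40e-06). None of 81 ribosomal genes was called (median log2 fold change 0.03), 1 of 78 nuclear respiratory-chain genes was higher (median -0.05), and of 13 housekeeping genes 1 was higher, the elongation factor Eef2 (0.69, edgeR adjusted p = 0.00317).

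The largest fall in astrocyte-like members was that of Malat1, the nuclear-retained long non-coding RNA (GRCm38 chromosome 19, 5795690 to 5802672, minus strand). It stood at 53810, 43590, 56560 and 44150 CPM in members and 185700, 159800, 171000 and 175400 in comparison barcodes. Every member value lay under every comparison value (edgeR log2 fold change -1.81, SE 0.07, adjusted p = 6.55e-127). Over the alternatives run the fold change was -1.58 to -2.25. Per barcode, the median share of Malat1 among non-mitochondrial UMIs was 0.855, 0.520, 0.912 and 1.63% in members against 16.8, 14.2, 15.1 and 15.5%, and 51.3% of members had under 1% against 6.66% of comparison barcodes. Kcnq1ot1, another RNA kept in the nucleus, was lower by 1.00 on the log2 scale (edgeR adjusted p = 0.0408), and these were 2 of 5 tested nuclear-retained RNAs.

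The Malat1 share of astrocyte-like barcodes was lower in each successive bin of mitochondrial share up to 25 to 35%, on both sides of the limit. It was 20.6% in 94 barcodes under 5% mitochondrial UMIs, 17.8% at 5 to 10%, 14.5% at 10 to 15%, 9.47% at 15 to 20%, 2.10% at 20 to 25%, 0.562% at 25 to 35% and 0.836% at 35 to 50%. In oligodendrocyte-like barcodes the share lay between 10.5 and 16.7% over the same bins, with 11.1, 10.5, 10.7, 15.9, 16.7, 14.8 and 11.9%. Of the astrocyte-like members, 116 (27.8%) were nearest to cluster 13, an astrocyte-like cluster whose median Malat1 share was 0% in members and comparison barcodes alike and which held 6.96% of the comparison astrocytes. Without the barcodes of that cluster the fitted fold change was -1.64, and in the larger clusters 1 and 4 the median share was 4.93% against 18% and 1.77% against 14%.

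Depth moved with this result. Among astrocyte-like barcodes with at most 700 non-mitochondrial UMIs, the median Malat1 share was 0.467% in 123 comparison barcodes, close to the 0.338% in 310 members, and it was 0% in 129 barcodes at or below 20% with fewer than 400 genes. A low Malat1 share was therefore found in shallow astrocyte-like barcodes on both sides of the limit. The same was not seen in oligodendrocyte-like barcodes, where it was 14.6% in 138 shallow members, 0.150% in 7 shallow comparison barcodes and 0.140% in 29 barcodes with fewer genes, though the last 2 numbers are small. This comparison was added after the data were seen and was not tested.

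Oligodendrocyte-like members went the other way for Malat1 per barcode. The median share was 15.9, 12.7, 14.4 and 17.1% in members against 9.42, 9.63, 10.1 and 12.1% in comparison barcodes, without overlap (exact sign-flip permutation test, p = 0.13, the smallest possible). In the summed counts the difference was small and its size depended on scaling, with an edgeR log2 fold change of 0.08 (SE 0.13, adjusted p = 0.723) with TMM, 0.32 with RLE (relative log expression) scaling (adjusted p = 0.0123) and 0.44 with none (adjusted p = 1.95e-05). It was 0.32 with DESeq2 (adjusted p = 0.00483) and 0.56 by edgeR at 200 UMIs per barcode (adjusted p = 7.12e-05), each under the fold limit of 0.58. Among members with at least 400 genes it was -0.45 (edgeR adjusted p = 0.0775). The difference between the astrocyte-like and the oligodendrocyte-like change in Malat1 was itself -1.56 on the log2 scale (SE 0.18, edgeR interaction term, adjusted p = 1.64e-15), and -1.42 to -1.77 with 1 library left out.

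Malat1 was also lower in neuron-like members, at a median of 2.49, 1.14, 0.332 and 2.91% against 6.32, 4.26, 4.86 and 4.81%, and in endothelial-like members at 0.522% against 6.19%. Among barcodes of at most 700 non-mitochondrial UMIs the endothelial-like medians were 0.435% in 30 members and 1.28% in 118 comparison barcodes, and the neuron-like medians 0.468% in 60 and 3.06% in 123. In ependymal-like members it was 3.19% against 2.93%, and in choroid plexus-like members 0.192% against 0%. No class other than the glial pair had enough members for a fit over genes.

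**Figure D3:**
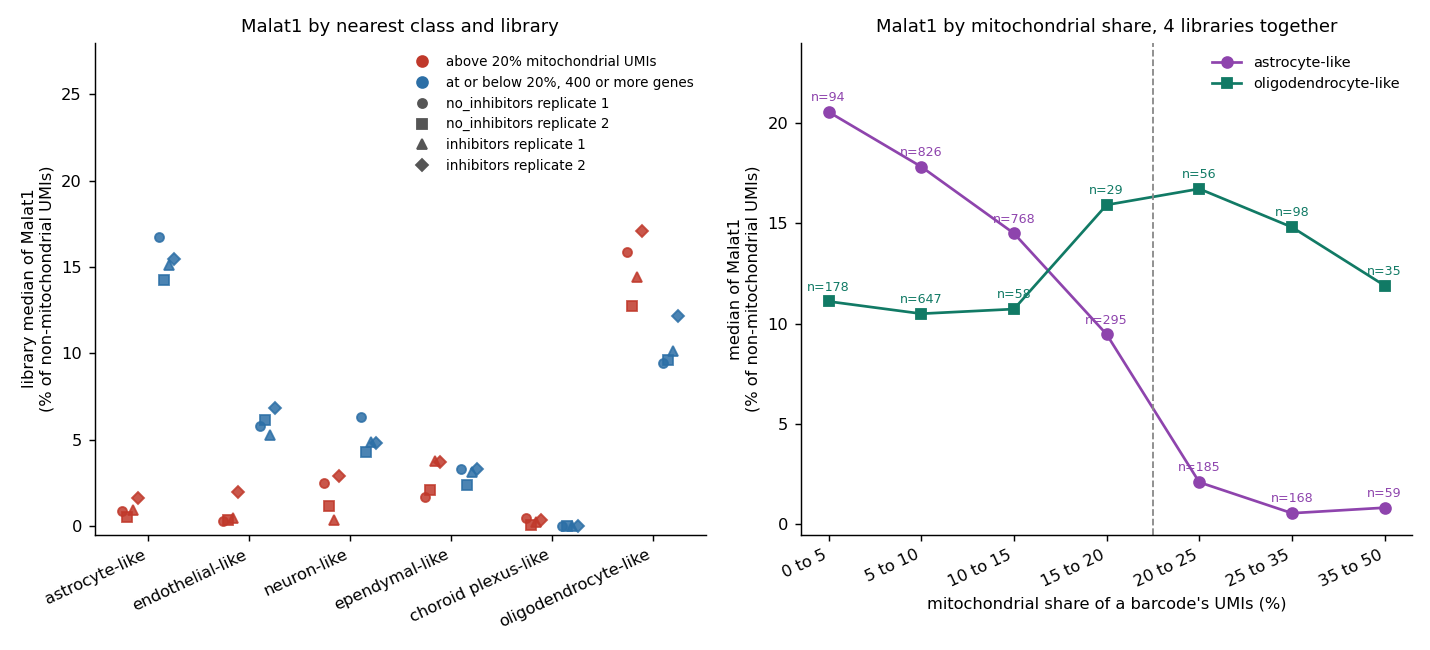
Left, library medians of the Malat1 share of non-mitochondrial UMIs (percent) by cell class in members (red) and comparison barcodes (blue). Right, the median share by mitochondrial share of the barcode over all 4 libraries, with n barcodes at each point and a dashed line at the 20% limit; it fell from 20.6 to 0.562% in astrocyte-like barcodes and lay between 10.5 and 16.7% in oligodendrocyte-like barcodes.

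The other genes called in astrocyte-like members included several of other cell types. The highest were Gng13, a G-protein subunit (log2 fold change 2.73, edgeR adjusted p = 9.85e-12), at 109.4, 37.3, 524.9 and 93.9 CPM against 32.1, 14.8, 31.8 and 19, the axonal kinesin Kif5a (1.66), the glycosyltransferase B3glct (1.58), the axon-initial-segment and paranode gene Nfasc (1.57) and the myelin gene Mobp (1.51). Of 9 oligodendrocyte markers 3 were higher, and Mbp, for myelin basic protein, stood at 1094, 968.7, 2962 and 2113 CPM against 566.1, 499, 728.8 and 1018, with 1 member library inside the comparison range (edgeR log2 fold change 1.28, adjusted p = 4.28e-27). The synaptic gene Snap25 (1.26) was the 1 of 4 neuronal markers called, and the choroid plexus transcript Ttr was higher by 0.65 (edgeR adjusted p = 4.41e-12). None of 10 microglial markers was called, but their median log2 fold change was 0.56 and their summed share was 0.127% against 0.0741%, higher in 4 of 4 libraries (exact sign-flip permutation test, p = 0.13). After Malat1 the largest falls were Gm10561 (-1.59), the translation repressor Pdcd4 (-1.55), Pdzd11 (-1.55) and Bmyc (-1.54), the last at 54.7, 74.5, 112.5 and 93.9 CPM against 223.4, 224.9, 254.1 and 254.1.

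Oligodendrocyte-like members changed far more. Of 5658 tested genes 221 were higher and 757 lower (edgeR, 3.91% and 13.4%). Scaling moved this split, with 351 and 400 without scaling and 305 and 503 with RLE scaling, and the median log2 fold change of all tested genes was -0.28 with TMM, 0.05 without scaling and -0.05 with RLE. Leaving out no_inhibitors replicate 2 left 480 lower genes, and with only the members of at least 400 genes 48 were higher.

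Most genes of the ribosomal and housekeeping lists, whose mRNAs are translated on free ribosomes, fell in oligodendrocyte-like members. Ribosomal protein genes were lower in 75 of 81 (median log2 fold change -1.14), against 56 without scaling and 65 with RLE, and none was higher under any of the 3. As a share of non-mitochondrial UMIs they made up 3.5, 3.24, 3.72 and 4.21% in members and 6.37, 6.17, 6.55 and 6.69% in comparison barcodes, without overlap. Of 13 housekeeping genes 10 were lower, with the actin-binding peptide Tmsb4x at 1451, 1640, 1946 and 1579 CPM against 7566, 8337, 7806 and 7778 (edgeR log2 fold change -2.26, adjusted p = 3.50e-41). The ferritin chain Fth1 stood at 13900, 10870, 11180 and 18840 CPM against 43840, 47270, 50120 and 50920 (-1.84, edgeR adjusted p = 1.12e-38). Actb (-1.36) and Ftl1 (-1.28) were lower too, and the chaperone Hspa8 was higher (0.81). Nuclear genes for the respiratory chain, whose proteins are imported into mitochondria, were lower in 44 of 76 (median -0.97), for example Cox7c (-1.49) and Cox4i1 (-1.04), and in 24 without scaling.

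The genes that rose included mRNAs that are translated on the endoplasmic reticulum. Of 16 such genes for secreted and membrane proteins, 14 were higher (median log2 fold change 1.23), and 15 without scaling or with RLE. The lipoprotein Apoe stood at 5769, 5660, 4844 and 4601 CPM in members against 1703, 2106, 1824 and 1628 (edgeR log2 fold change 1.52, adjusted p = 1.95e-23). The tetraspanin Cd81 (1.5), the lysosomal Psap (1.3), the protease inhibitor Cst3 (1.17) and Itm2b (0.89) were also higher. Neat1, an RNA that builds nuclear paraspeckles, stood at 2685, 2508, 2194 and 1960 CPM against 935.6, 1091, 943.9 and 1001, and was the 1 of 5 nuclear-retained RNAs called (edgeR log2 fold change 1.23, adjusted p = 1.46e-12).

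The oligodendrocyte markers themselves split, with 1 higher and 5 lower of 10. Mag, for a membrane glycoprotein of myelin, stood at 5478, 5821, 4761 and 8412 CPM against 1561, 1512, 1535 and 1796 (edgeR log2 fold change 1.91, SE 0.14, adjusted p = 1.44e-36). Mobp, for a small cytoplasmic myelin protein, stood at 1850, 1704, 1366 and 2668 CPM against 5836, 6643, 5599 and 6144 (-1.68, edgeR adjusted p = 9.38e-24). In neither gene did the groups overlap. Opalin (-1.44), Ermn (-1.27) and Mog (-0.84) were lower. Mbp, whose mRNA travels along oligodendrocyte processes, was called lower with TMM (-0.66, edgeR adjusted p = 2.72e-05) but not without scaling (-0.30) or with RLE (-0.42).

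Transcripts of other cells were higher in oligodendrocyte-like members as well. Of 10 astrocyte markers 5 were higher, among them the sodium-pump subunit Atp1b2 (1.87), the glycolytic enzyme Aldoc (1.76, edgeR adjusted p = 4.77e-11) and the glutamate transporters Slc1a2 (1.34) and Slc1a3 (1.03). Ttr made up 57.1, 81.5, 45.7 and 77.2 per 10000 non-mitochondrial UMIs in members and 14.7, 25.2, 12.1 and 22.5 in comparison barcodes (log2 fold change 1.48, edgeR adjusted p = 1.56e-22). In astrocyte-like barcodes the same share was 55.2, 83.8, 46.9 and 103.6 against 40.2, 44.1, 32.0 and 40.1, so that members of both classes held overlapping amounts of this choroid plexus transcript. Hemoglobin Hbb-bs was higher by 0.99 (edgeR adjusted p = 0.00937), and none of 7 microglial markers was called. The median log2 fold change of these markers was 0.54 beside -0.28 over all genes, their summed share was 0.0731% against 0.0420%, higher in 4 of 4 libraries (exact sign-flip permutation test, p = 0.13), and 2 of 11 genes of the microglial identity list were called higher. The source of these transcripts was not tested. Apoe and Cst3 are also strongly expressed by astrocytes. The whole list of endoplasmic-reticulum-routed genes averaged 5.31% of non-mitochondrial UMIs in astrocyte-like comparison barcodes and 0.895% in oligodendrocyte-like ones. The part of other cells' transcripts in its rise in oligodendrocyte-like members was not tested.

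By size, the highest genes in oligodendrocyte-like members were the histone acetyltransferase Kat2a (2.84), Cyp2j6 (2.69), Pcp4 (2.67), Egfl7 (2.55) and Bcan (2.53). The lowest were not detected in members. Rnd2, a small GTPase, had 0 UMIs in members and 331 in comparison barcodes, and Nudt16l1, Banf1, Mea1 and Taf10 had 0 against 241, 241, 238 and 227. With a floor of 3 counts over all members they were at least 4.79-, 3.49-, 3.49-, 3.44- and 3.28-fold lower.

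**Figure D4:**
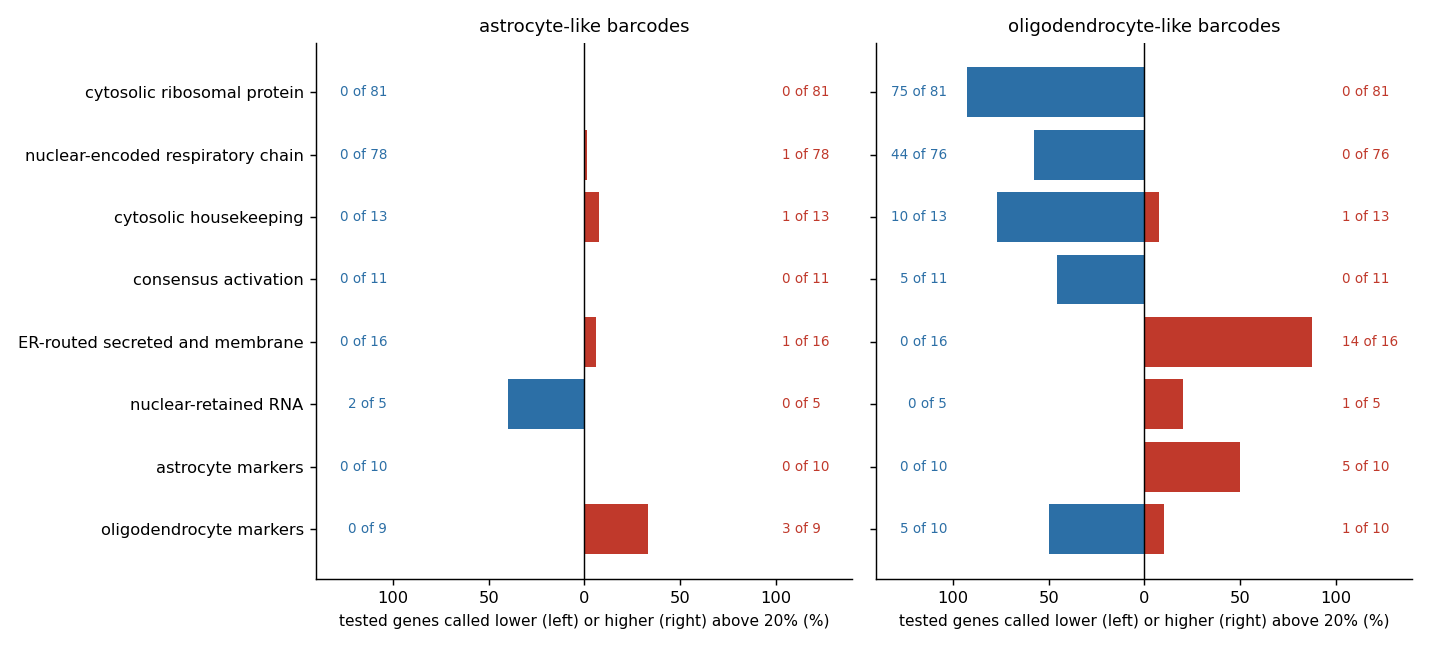
Percent of the tested genes of each list that were called lower (blue, left) or higher (red, right) in members than in comparison barcodes (edgeR, TMM-scaled), with the numbers printed beside the bars. In oligodendrocyte-like barcodes 75 of 81 ribosomal genes were lower and 14 of 16 endoplasmic-reticulum-routed genes higher, and in astrocyte-like barcodes 2 of 5 nuclear-retained RNAs were lower.

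The difference between both classes was tested directly. For 586 of 8712 genes the change was higher in astrocyte-like than in oligodendrocyte-like members and for 58 lower (edgeR interaction term, 6.73% and 0.666%). Leaving out no_inhibitors replicate 1 or 2 or inhibitors replicate 1 left 357, 332 or 385 upward, and leaving out inhibitors replicate 2 left 34 downward. The lean upward did not hold in other fits, with 181 upward and 207 downward by DESeq2 and 41 and 68 when every barcode was thinned to 200 UMIs. Of 4818 genes tested in both classes, 11 were higher in both, 5 lower in both and 10 moved in opposite directions. Mobp (difference 3.51, adjusted p = 1.23e-32) and Mbp (2.25, adjusted p = 4.95e-28) rose in astrocyte-like members and were lower in oligodendrocyte-like ones. The imprinted gene Nnat fell by 1.13 in astrocyte-like members and was higher by 1.91 in oligodendrocyte-like ones (edgeR difference -2.71). The splicing factor gene Srsf2 was lower in the first (-0.67) and higher in the second (0.88). Genes higher in both classes included Ttr, Gng13, Psap, Scd2, App and the microglial signalling adaptor Tyrobp (0.82 in astrocyte-like and 1.45 in oligodendrocyte-like members), and those lower in both were Cyb5a, Klf9, Ppp1r11, Nkx6-2 and Hint1.

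Every barcode was also thinned to 200 non-mitochondrial UMIs. Random thinning leaves the expected share of a gene in a barcode unchanged, so that it does not match barcodes by their original depth. The direction of Malat1 per barcode was thus given in advance. Malat1 gave 8.24, 5.87, 8.64 and 7.62 of 200 UMIs in astrocyte-like members against 32.7, 27.8, 29.7 and 31.5, and 29.4 against 22.6 on average in oligodendrocyte-like barcodes. Detected genes were 168.5 per 200 UMIs in astrocyte-like members against 152.5, and 145.9 against 151.5 in oligodendrocyte-like members. In choroid plexus-like members, which had too few barcodes in 1 library for a fit, ribosomal UMIs were 11.1 of 200 against 18.8, respiratory-chain UMIs 7.54 against 20.3, housekeeping UMIs 2.27 against 4.90 and endoplasmic-reticulum-routed UMIs 4.40 against 2.21 (each in the same direction in 4 of 4 libraries, exact sign-flip permutation test p = 0.13, the smallest possible). Within cluster 26 alone, the nuclear respiratory-chain share was 3.38, 5.12, 3.10 and 3.80% in members and 5.54, 5.89, 4.82 and 4.76% in comparison barcodes, lower in each library. The ribosomal share there was 4.3, 5.0, 5.1 and 6.9% against 5.1, 5.6, 5.6 and 4.9%. These ranges overlapped, and the share was higher in members in inhibitors replicate 2. The ribosomal difference of the whole class was therefore not seen in each library within this cluster.

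The inhibitors were added to stop genes being switched on during dissociation, and the question here is whether members carried that response. The first list, the consensus activation genes, was defined by the study in sorted microglia. In members it made up 0.171 and 0.298% of non-mitochondrial UMIs without inhibitors and 0.208 and 0.228% with them, a ratio of 1.07 with overlapping groups (exact permutation test, p = 1.0). In comparison barcodes it made up 0.569 and 0.486% against 0.352 and 0.359%, a ratio of 1.48 without overlap (p = 0.33, the smallest that an exact permutation test of 2 against 2 libraries allows). The second list was chosen by the study on these same libraries, so that its direction is not independent evidence. It gave 0.108 and 0.168% against 0.109 and 0.109% in members (ratio 1.27, exact permutation p = 1.0) and 0.292 and 0.219% against 0.0944 and 0.0865% in comparison barcodes (ratio 2.83, exact permutation p = 0.33). In members its genes 1500015O10Rik and Folr1 held 585 and 204 UMIs, against 52 for Jun and 19 for Junb. In comparison barcodes these held 6131, 1285, 6036 and 4625. The list averaged 0.301% in choroid plexus-like members, 0.0307% in astrocyte-like and 0.0281% in oligodendrocyte-like members. Its share in members therefore also varies with their class makeup, and this part was not tested.

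Microglia-like barcodes were nearly absent from members, with 2, 2, 1 and 4 microglia-like barcodes, fewer than the minimum of 20 per library used for a fit, and the inhibitors were not tested in microglia-like members. In microglia-like comparison barcodes Hspa1a, Dusp1, Zfp36, Junb and Atf3 were called higher without inhibitors (edgeR log2 fold change 2.47 to 5.98). Fos (7.63), Jun (3.69), Egr1 (4.56), Ccl3 (2.69) and Ccl4 (2.62) were also fitted higher but did not pass the test there (edgeR adjusted p = 0.189 to 0.866). With 2 libraries per group this does not show that they were unchanged. Within oligodendrocyte-like barcodes the second list made up 0.0319 and 0.0268% without inhibitors against 0.0315 and 0.0221% with them in members (ratio 1.10), and 0.0640 and 0.0600% against 0.0194 and 0.0224% in comparison barcodes (ratio 2.97). Within astrocyte-like barcodes the ratios were 1.29 in members and 1.39 in comparison barcodes. The consensus list was also lower in oligodendrocyte-like members as a whole, with 5 of 11 genes called beside 13.4% of all genes called lower in that class, among them the AP-1 component Jund at 72.6, 289.4, 165.6 and 353.9 CPM against 1169, 983.8, 1053 and 1066 (edgeR log2 fold change -2.20, adjusted p = 4.23e-15). In astrocyte-like members 0 of 11 were called.

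**Figure D5:**
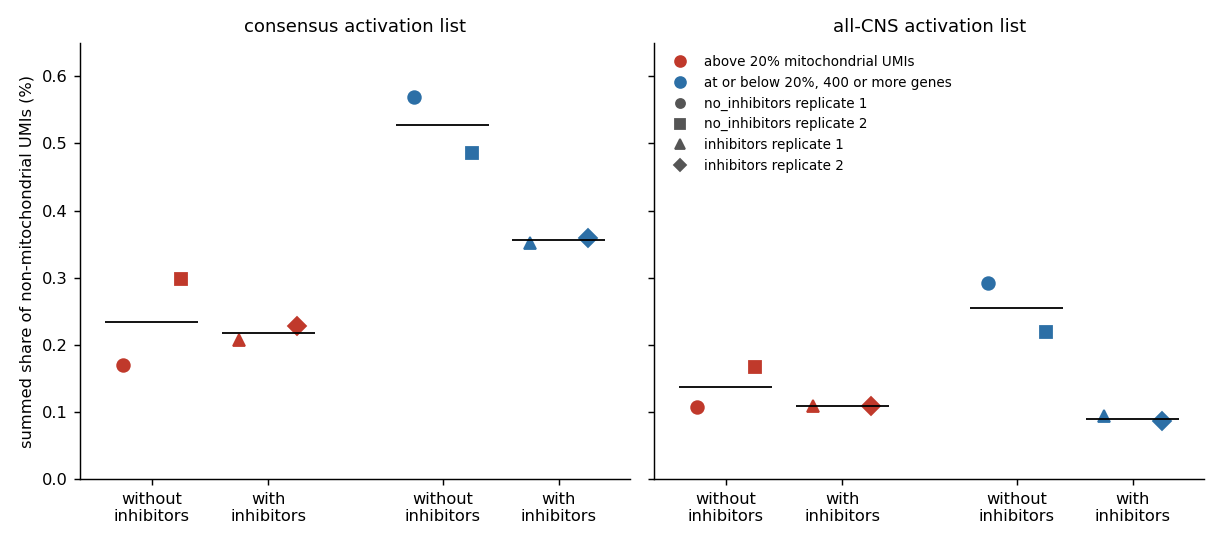
Summed share of the consensus list and of the list chosen by the study on these libraries (all-CNS) in non-mitochondrial UMIs (percent), without and with inhibitors, in members (red) and comparison barcodes (blue). Each point is a library and each line the mean of 2; for the consensus list the groups overlapped in members (0.171 and 0.298% against 0.208 and 0.228%) and not in comparison barcodes.

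Gene by gene, no gene passed the test between groups among members, with 0 higher and 0 lower of 5019 tested (edgeR, 0% and 0%). At an unadjusted p under 0.05 there were 318 genes with edgeR and 82 with DESeq2, which also called 0. With only 2 libraries per group and few UMIs, leaving out no_inhibitors replicate 2 gave 56 calls higher without inhibitors and leaving out the other libraries 5 to 13, so that the count of 0 rests on all 4 libraries. In comparison barcodes 8 of 13834 genes were higher without inhibitors and none lower (edgeR, 0.0578% and 0%), namely Fos, Hist1h1d, Hspa1a, Zfp36, Junb, Socs3, Prlr and Enpp2. Without inhibitors replicate 2 the count was 0, and without no_inhibitors replicate 1 or 2 it was 16 or 35. DESeq2 called 39 higher and 0 lower, and edgeR with the replicate number as a block 41 higher and 1 lower. Prlr, a choroid plexus marker, stood at 63.5, 73.4, 28.3 and 22 CPM, and Enpp2 at 1664, 1953, 840.2 and 657.4. Choroid plexus-like barcodes gave 13.6, 12.25, 8.68 and 4.04% of the non-mitochondrial UMIs of comparison barcodes, also more without inhibitors. The part of class makeup in the calls among comparison barcodes was not tested. The immediate early gene Fos had 1344, 958, 25 and 27 UMIs there (log2 fold change 5.42, edgeR adjusted p = 0.0305). In members it had 2, 24, 1 and 3 UMIs, with most in 1 library, and was not tested. Jun was the only 1 of 10 chosen activation genes with enough counts in members, at 17, 18, 5 and 12 UMIs (log2 fold change 0.99, SE 0.43, edgeR adjusted p = 0.783).

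The effect of the inhibitors differed between members and comparison barcodes for 17 genes upward and 55 downward of 13541 (edgeR interaction term, 0.126% and 0.406%), and none of the 10 activation genes was among them. Without inhibitors replicate 2 these counts were 1 and 8, and without no_inhibitors replicate 1 the downward count was 26. DESeq2 called 0 upward and 15 downward. The largest by size had few UMIs in members, such as Ctgf with 13, 3, 0 and 0, Gtf2e2 with 0, 0, 3 and 9, and Rassf3 with 0, 1, 7 and 12. Others were choroid plexus genes, such as the metalloreductase Steap2 at 171.9, 131.8, 283.4 and 447.8 CPM in members and 30.9, 39.8, 19 and 8.96 in comparison barcodes (difference -2.67), Tmem72 (-2.58) and Htr2c (-2.42). The share of members' non-mitochondrial UMIs from choroid plexus-like barcodes was 20.6, 27.3, 30.5 and 43.5%, and that of comparison barcodes 13.6, 12.3, 8.68 and 4.04%, which ran in opposite directions between the groups. With choroid plexus-like barcodes left out on both sides, 0 genes upward and 2 downward remained past the limits.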

How the data were processed

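Single-cell RNA-seq was run on 4 whole-brain libraries. Per the labels and the submitters' processing notes, the authors prepared them with the 10x 3′ version 2 kit and used bcl2fastq, Cell Ranger 3.0.0 (mm10, GRCm38) and Seurat. The deposited matrices hold raw UMI counts for 31053 genes, and no barcode under 500 UMIs. All columns were mapped to samples (0 unused).

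The members, gene lists and tests were chosen with earlier results of these data known. Barcodes were split at 20% mitochondrial UMIs and, for the comparison, 400 genes. Comparison barcodes were clustered (2000 variable genes, 30 principal components, 15 neighbours, Leiden resolution 1, leidenalg 0.10.2, igraph 0.11.9, scikit-learn 1.9.0). A cluster was named when at least 3 fixed markers were 2-fold up and detected in 10% of its barcodes, limits set with the clusters in view, and 3 of 31 clusters (263 barcodes) stayed unnamed. Names rebuilt in this way may differ from the study's. Members took the class with the highest multinomial likelihood at 200 UMIs, from profiles of the other libraries (98.1% agreement in comparison barcodes). Doublet scores marked 256 comparison barcodes (2.54%), which were kept and left out in an alternative.

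Counts were summed per library over non-mitochondrial genes and tested with edgeR 4.0.16 (quasi-likelihood, TMM scaling, Benjamini-Hochberg adjusted p under 0.05 and log2 fold change beyond 0.58), and with limma 3.58.1 for class shares and for the mitochondrial genes. DESeq2 1.42.0, other scalings, limits and depths and each library left out were alternatives. Tests of single values were exact permutation tests over libraries. Named genes were the 10 (5 within a class) with the largest fold change in each direction among called genes with a mean of at least 50 CPM that moved one way in 4 of 4 libraries, all called genes or the 10 largest for the inhibitors, and up to 4 genes of each list by level. Other called list genes and genes called in both classes were named after their values were seen. The analysis ran in R 4.3.3 and in Python 3.11.15 (with matplotlib 3.10.9, pandas 2.3.3, scipy 1.17.1 and numpy 2.4.6), and gene positions came from GENCODE M21. Scripts for the fits were tested on simulated data. Some genes that met the rule are not reported here.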

Additional observations from a re-analysis of the deposited data

Results flagged for a closer look

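Of 70 groups of 4 libraries, 11 held a library far from the other 3, where chance gives about 1 group in 20. Among members these were the oligodendrocyte-like share of inhibitors replicate 2 (26.3%), the mural-like share (2.52%), the summed mural marker share (0.150%) and the summed share of the activation list chosen on these libraries (0.168%) of no_inhibitors replicate 2, and the share of mt-Nd2 in mitochondrial UMIs of inhibitors replicate 2 (2.42%). Rare classes gave the other values in members, with a neural progenitor-like share of 0.407% in no_inhibitors replicate 1 (1 barcode in all members) and erythrocyte-like and oligodendrocyte precursor-like shares of 0 in inhibitors replicate 1. Among comparison barcodes they were the choroid plexus-like share of inhibitors replicate 2 (4.14%), the fibroblast-like share of no_inhibitors replicate 1 (0.846%) and the oligodendrocyte precursor-like share of no_inhibitors replicate 2 (0.461%).

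The change from comparison barcodes to members differed between the astrocyte-like and the oligodendrocyte-like class for 586 genes upward and 58 downward by the interaction term, and for Malat1 by -1.56 on the log2 scale. Inhibitors replicate 2, which stood apart in the oligodendrocyte-like share, when left out gave 34 genes downward.

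The effect of the inhibitors differed between members and comparison barcodes for 17 genes upward and 55 downward. By fitted size these were led by Ctgf (9.85), Gtf2e2 (-8.74), Rassf3 (-3.95), Slc16a8 (-3.01), Mylk (2.88), Sdhaf1 (2.88), Slc13a4 (-2.86), Steap2 (-2.67), Tmem72 (-2.58) and Htr2c (-2.42). For Ctgf and Gtf2e2 the members of 1 group had 0 UMIs, so that these sizes depend on the prior count of the fit and are no bounds. Htr2c changed sign without the choroid plexus-like barcodes (1.39). The part of the choroid plexus share and of the low counts in these differences was not tested further.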

How the results depend on the processing

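Of 1470 values recomputed under 23 settings for 146 results, 1192 kept their direction and their side of the threshold or stayed within the limit set for counts, and 5 changed sign. These were the oligodendrocyte-like share with a limit of 10% (-1.19 percentage points), Malat1 (-0.45) and Sparc (-0.12) in oligodendrocyte-like members with at least 400 genes, Htr2c without choroid plexus-like barcodes (1.39) and mt-Nd5 without no_inhibitors replicate 1 (0.0113, with -0.0862 to 0.0113 over the 4 libraries left out). Counts of genes are given as higher/lower. Over all classes they were 718 higher with a limit of 30%, 758/829 with matched barcode numbers per class and 687/988 when thinned to 200 UMIs. Astrocyte-like counts were 25/21 with DESeq2, 208/33 without scaling, 11/27 thinned, 43/132 with at least 400 genes and 170 lower without cluster 13. Oligodendrocyte-like counts were 351/400 without scaling, 105/103 thinned, 48 higher with at least 400 genes, and 263 lower with DESeq2 and 503 with RLE. The class difference gave 181/207 with DESeq2 and 41/68 thinned. For the inhibitors, members gave 4/4 without a low-count filter and 4/5 with a limit of 10%, comparison barcodes 39 higher with DESeq2, and the difference 0/15 with DESeq2, 11 higher without a filter and 0/2 without choroid plexus-like barcodes. With at least 400 genes 8 class shares were lower, and with a limit of 10% 5 mitochondrial genes were higher. With a limit of 10% the list differences (percentage points) were -0.00575 for nuclear-retained RNA, 0.241 for endoplasmic-reticulum-routed, -3.39 for ribosomal (-4.27 at 30%) and 0.494 for respiratory-chain genes. The endoplasmic-reticulum-routed difference was -0.652 with at least 400 genes. Without a gene minimum they were -0.0230 for cell death, 3.05e-05 for the stress response, -1.11 for microglial identity and -3.41 for ribosomal genes. Detected genes differed by 2.52 at 100 and 8.65 at 400 UMIs, and the share of members by group by 2.43 points at 10% and 0.147 at 30%. The cause of these changes was not tested.

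With each library left out in turn the ranges were 1634 to 1944 higher and 2285 to 2366 lower over all classes, 35 to 59 and 40 to 73 in astrocyte-like, 156 to 248 and 480 to 556 in oligodendrocyte-like barcodes, 332 to 485 and 34 to 67 for the class difference, 5 to 56 and 4 to 27 for the inhibitors in members, 0 to 35 and 0 to 10 in comparison barcodes, 1 to 24 and 8 to 68 for their difference, 4 to 5 and 4 to 5 for class shares and 1 to 3 and 4 to 6 for mitochondrial genes. The list differences ranged from -3.03 to -2.40 (nuclear-retained), -1.90 to -1.72 (housekeeping), -0.323 to -0.180 (endoplasmic-reticulum-routed), -0.0312 to -0.0270 (cell death), -0.00292 to -0.00126 (stress response), -0.244 to -0.155 (consensus activation), -0.0737 to -0.00488 (second activation list), -1.19 to -1.16 (microglial identity), -3.99 to -3.79 (ribosomal) and -0.151 to 0.169 (respiratory chain). Detected genes ranged from 4.40 to 6.51 and the share of members by group from 0.268 to 1.18 points.

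Replicate numbers were shared by the groups, but same-numbered libraries deviated together only weakly (r = 0.214 in members, 0.0653 in comparison barcodes, 2 pairs). With the replicate number as a block, members gave 0 calls in each direction, comparison barcodes 41 higher and 1 lower, and the share of members differed by 0.723 points (p = 0.5, exact permutation within pairs). The 198 to 280 members per library, 553 to 577 non-mitochondrial UMIs in their median member and 2 animals per group limit what can be said of rare classes and of the inhibitors.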
